A study of Homo sapiens with 6 samples.

Results

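Histone lysine methyltransferases and demethylases were examined in THP1, a human line established from acute monocytic leukemia that carries a KMT2A-MLLT3 fusion, after short exposure to Withaferin A (WFA). Members were taken by name from the 26485 gene names in the count table. The names were KDM or KMT with a digit and a letter, and SETD with a number. Also taken were EZH1, EZH2, DOT1L, NSD1, WHSC1, WHSC1L1, EHMT1, EHMT2, SUV39H1 and SUV39H2. Relatives under other symbols, such as JMJD1C, PHF2, PHF8 and KDM8, were not members, so the families counted here are not complete. The rule gave 43 genes, of which 25 are methyltransferases or SETD proteins and 18 are demethylases. WHSC1, WHSC1L1 and SETD8 are the symbols in the table for NSD2, NSD3 and KMT5A. RNA was sequenced from cells given the DMSO vehicle or WFA, a steroidal lactone from Withania somnifera, for 6 h, with 3 libraries per group from 3 independent experiments. The WFA concentration is 1 mM in the sample labels and 1 μM in the methods of the study. Both groups are the same unmodified line, grown in medium with serum, and they represent a single established line and a single time.

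Lysine methyltransferases place methyl groups from S-adenosylmethionine on histone tails, and nearly all do so through a SET domain, with DOT1L as the known exception. Demethylases remove them by either of a pair of chemistries, a flavin-dependent oxidation in the KDM1 enzymes and an iron- and oxoglutarate-dependent reaction in the JmjC enzymes from KDM2 to KDM7. Methylation of H3K4, H3K36 and H3K79 marks active genes, whereas methylation of H3K9 and H3K27 marks silent ones. In leukemia with a KMT2A fusion, DOT1L is recruited by the fusion protein to its target genes, and KDM1A holds back differentiation.

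Library totals lay between 11006035 and 13872810 counts, and no library pair within a group agreed within sampling noise. The 100 most counted genes took 17.5 to 19.8% of the counts in the DMSO libraries and 23.2 to 23.5% in the WFA libraries, and the part of this difference in the results was not tested. Of the 10 myeloid markers, all were above 3 counts, with a summed level of 2690 to 3230 counts scaled to library size (CPM) with DMSO and 2360 to 3150 CPM with WFA. Of the 5 markers each of other cell types, 1 T cell, 4 B cell and 0 erythroid markers passed 3 counts, the T and B cell sums stayed at or below 4.75 CPM in every library, and the erythroid markers GATA1, HBA1 and HBB were at 0. The epithelial and fibroblast list had 2 of 5 markers above 3 counts, with KRT19 at 0, and its sum was 0.844 to 1.5 CPM with DMSO and 9.5 to 13.2 CPM with WFA, in which COL1A1 averaged 0.453 and 9.95 CPM. Its part in the results was not tested.

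Members moved in both directions after 6 h of WFA. Of the 40 members with enough counts to be tested, 12 were higher (30.0%) and 11 were lower (27.5%) by the quasi-likelihood test of edgeR, with p-values adjusted over 12854 genes by the Benjamini-Hochberg method and a threshold of 0.05. Among all 12854 genes tested, 25.8% were higher, 24.7% were lower and 50.5% were called in either direction, so the shares of members were near those of all genes. Without DMSO replicate 1, 7 members were lower (17.5%), beside 21.8% of all genes in the same fit. Scaling by total counts alone gave 11 higher and 14 lower members, beside 2763 higher and 3875 lower genes (21.5% and 30.1%). The median log2 fold change of the tested members was -0.06, against 0.02 for all tested genes, and the range ran from -1.12 for SETD6 to 1.29 for KDM7A. Fold changes of at least 0.58 in size on the log2 scale together with a called test were found for 15.8% of all genes in the upward direction and 13.2% in the downward direction. Of the 40 tested members, EZH1, KDM4D, KDM5A, KDM6B and KDM7A rose by that much, and KDM1A, KDM1B, KDM2B and SETD6 fell. The members did not exceed the shares of all genes in either direction. In bulk RNA, fewer cells of a kind and less RNA per cell cannot be told apart.

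Of the 24 tested methyltransferases and SETD proteins, 4 were higher (16.7%) and 8 lower (33.3%), beside 25.8% and 24.7% of all tested genes. Their median log2 fold change was -0.09. The number lower in this class fell to 4 without DMSO replicate 1 and to 5 without DMSO replicate 3 or WFA replicate 2, with 3, 4 and 4 higher. Among all genes in those fits 21.8%, 22.0% and 23.1% were lower, so the share lower in this class was not above that of all genes. Of the 16 tested demethylases, 8 were higher and 3 lower, with a median of 0.29. A further division of the demethylases by chemistry was made after their values were seen. Both flavin-dependent enzymes were lower, while 8 of the 14 tested JmjC enzymes were higher (57.1%) and 1, KDM2B, was lower (7.14%). The difference between the classes was not tested, because the genes are not replicates of a condition.

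**Figure D1:**
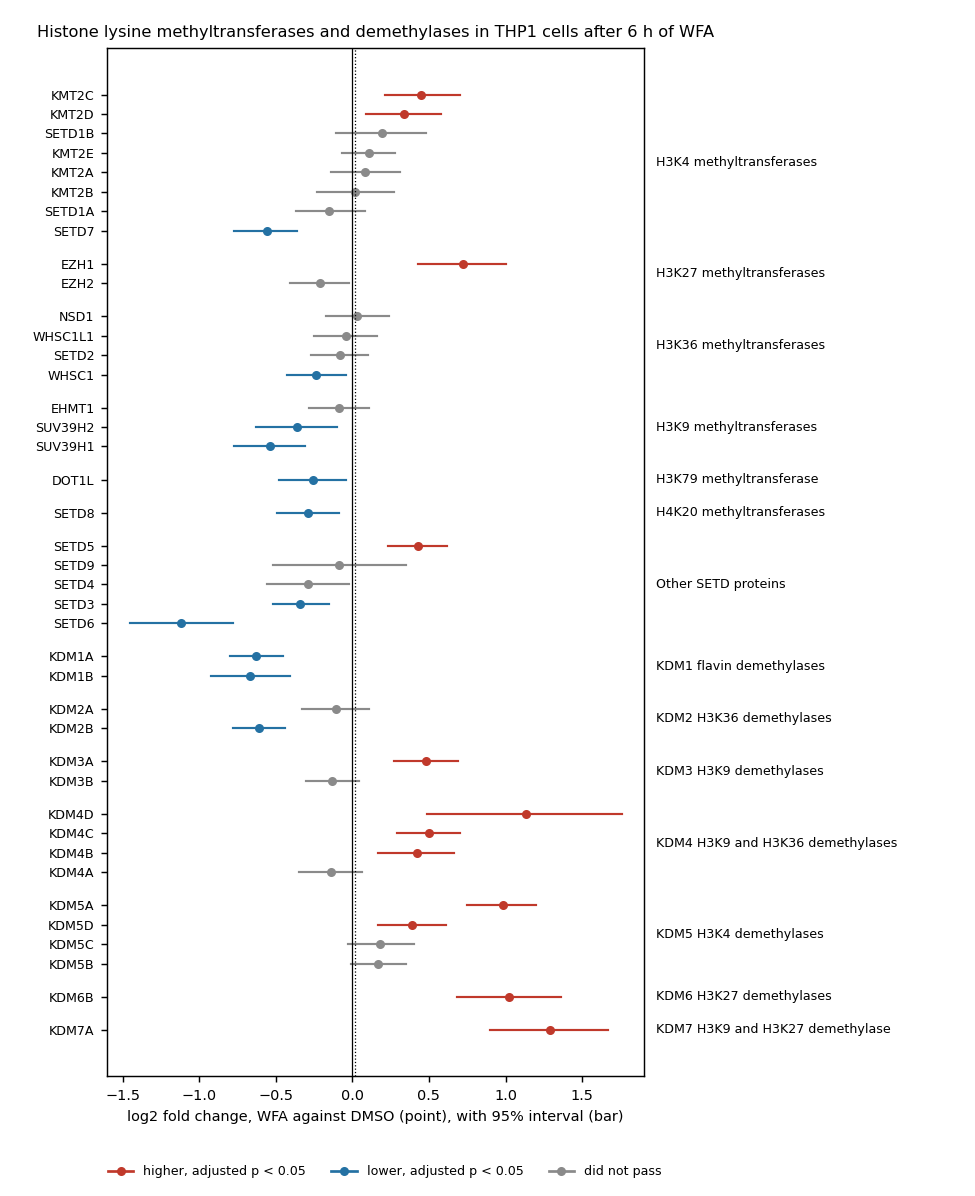
Log2 fold change with WFA against DMSO (horizontal axis) for the 40 tested members, grouped by the histone residue or family given at the right. Points are edgeR estimates from 3 libraries per group, bars are 95% intervals, colors give the call and the dotted line is the median of all tested genes, 0.02. The called points of the KDM3 to KDM7 families all lie to the right, and both KDM1 enzymes lie to the left. These groupings were made after the values were seen and leave out KDM2B, which was lower.

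KDM7A, a JmjC enzyme that removes H3K9 and H3K27 methylation (chr7:140084746-140177035, minus strand, GRCh38), had the largest rise among the members. Its level was 6.96, 4.90 and 7.25 CPM in DMSO replicates 1, 2 and 3, and 16.6, 12.6 and 17.6 CPM in the WFA replicates. Every WFA library lay above every DMSO library, and replicate 2 was the lowest of both groups. The log2 fold change was 1.29 ± 0.18 (SE, adjusted p = 3.35e-05 by edgeR), a 2.44-fold rise. Transcripts of KDM7A were scarce for their length, at 0.687 CPM per kilobase of exon with DMSO, which placed the gene 39th from the top of the 40 tested members.

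KDM6B (chr17:7839904-7854796, plus strand), the H3K27 demethylase known for its induction in activated macrophages, was measured at 7.25, 8.37 and 8.75 CPM with DMSO and at 14, 15.8 and 19.6 CPM with WFA. The groups did not overlap, and the log2 fold change was 1.02 ± 0.16 (SE, adjusted p = 8.49e-05 by edgeR). Its paralog KDM6A, an X-linked subunit of the KMT2C and KMT2D complexes, had a single count in WFA replicate 2 and none in the other 5 libraries, so no fold is given. Among the members known to act on H3K27 methylation as demethylases, KDM6B and KDM7A were thus the ones detected, and both rose.

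All 4 members of the KDM5 family, which remove H3K4 methylation, had positive log2 fold changes, and 2 of them passed the test. KDM5A (chr12:280129-389454, minus strand), first described as a partner of the retinoblastoma protein, stood at 64.1, 63.7 and 74.2 CPM with DMSO and at 133, 115 and 149 CPM with WFA. Every WFA library exceeded every DMSO library by a wide margin, and the log2 fold change of 0.98 ± 0.10 (SE, adjusted p = 2.4e-06 by edgeR) was a 1.97-fold rise. KDM5D rose by 0.39 on the log2 scale (standard error 0.10, edgeR adjusted p = 0.00505). KDM5B and KDM5C had log2 fold changes of 0.17 and 0.18, with 95% intervals from -0.01 to 0.35 and from -0.03 to 0.40. Per kilobase of exon, the ratio of KDM5A to KDM5B went from 1.34 ± 0.126 to 2.34 ± 0.361 (SD, n = 3 each), a pair chosen after the values were seen. For this ratio the two-sided exact permutation p was 0.1, the smallest value that 3 libraries against 3 allow when the pairing of replicates is ignored.

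In the KDM4 family, whose enzymes act on H3K9 and in part on H3K36, 3 of 4 tested members were higher. KDM4C (chr9:6720863-7175648, plus strand) had 47.3, 52.6 and 55.9 CPM with DMSO and 73.1, 68.3 and 78.1 CPM with WFA. These groups were apart, with a log2 fold change of 0.50 ± 0.10 (SE, adjusted p = 0.000532 by edgeR). KDM4B rose by 0.42 on the log2 scale (standard error 0.12, edgeR adjusted p = 0.00764). KDM4D, an intron-poor relative known from testis (chr11:94973681-94999518, plus strand), had only 15, 16 and 10 counts with DMSO and 24, 36 and 22 counts with WFA, or 1.06, 1.26 and 0.833 CPM against 1.96, 2.90 and 2.05 CPM. Its log2 fold change of 1.13 had a wide 95% interval of 0.49 to 1.76 (edgeR adjusted p = 0.00554). KDM4A, by contrast the member with the highest level per length at 101 CPM per kilobase with DMSO, had a log2 fold change of -0.14 with a 95% interval from -0.35 to 0.06. Its call depended on a single library, since without WFA replicate 3 the value was -0.24 (edgeR adjusted p = 0.0458). KDM4E had no count in any library.

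KDM3A, an H3K9 demethylase induced by hypoxia (chr2:86440647-86492716, plus strand), had 76.1, 89.9 and 85.4 CPM with DMSO and 117, 105 and 129 CPM with WFA. The groups were separate, and the log2 fold change was 0.48 ± 0.10 (SE, adjusted p = 0.000781 by edgeR). Its paralog KDM3B had -0.13, with a 95% interval from -0.30 to 0.04. Grouping the KDM3 to KDM7 families, which leaves out the lower KDM2B, was also done after the values were seen. The count of lower members in this group is therefore set in part by the choice and is not a test. Among their 12 tested members, 0 were lower in edgeR's test, in DESeq2's Wald test, or at an unadjusted p-value under 0.05. The number was 1 with total counts (KDM3B, -0.21) and 1 without WFA replicate 3 (KDM4A, -0.24).

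**Figure D2:**
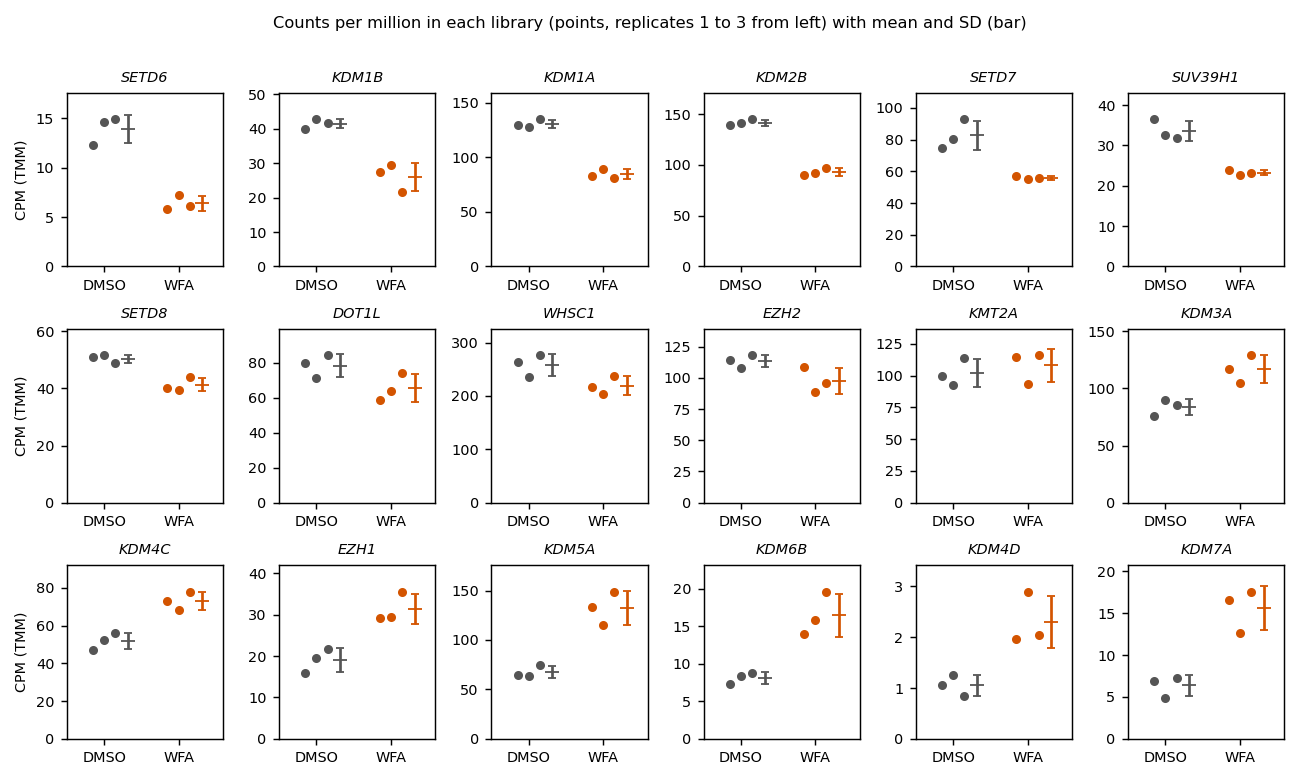
CPM with TMM scaling (vertical axis, from 0 in each panel) in the 3 DMSO and 3 WFA libraries for the 18 members given library by library, ordered from the largest fall to the largest rise. Points are libraries and the bars beside them are mean and SD. The groups overlap for DOT1L, WHSC1, EZH2 and KMT2A and are separate for the other panels. Panels were chosen largely by their test results, so separate groups follow in part from the choice. The share of all tested genes with separate groups is not given here.

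The flavin-dependent demethylases and KDM2B formed the lower part of the demethylase class. KDM1A (LSD1; chr1:23019443-23083689, plus strand), which removes mono- and dimethylation from H3K4 and is a drug target in acute myeloid leukemia, had 130, 128 and 135 CPM with DMSO and 83.3, 89.7 and 81.5 CPM with WFA. The spread within each group was small beside the gap, and the log2 fold change was -0.63 ± 0.08 (SE, adjusted p = 1.67e-05 by edgeR). KDM1B (LSD2; chr6:18155329-18223853, plus strand) had 40.1, 42.8 and 41.7 CPM with DMSO and 27.4, 29.4 and 21.5 CPM with WFA. It too was lower in every WFA library, with a log2 fold change of -0.67 ± 0.12 (SE, adjusted p = 0.000274 by edgeR).

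KDM2B (chr12:121429097-121581015, minus strand), an H3K36 demethylase that brings a variant Polycomb complex to CpG islands, had 139, 141 and 145 CPM with DMSO and 90.4, 91.8 and 97.2 CPM with WFA. The libraries of each group lay close together and the groups were apart, at a log2 fold change of -0.61 ± 0.08 (SE, adjusted p = 1.85e-05 by edgeR). Its paralog KDM2A had -0.11, with a 95% interval from -0.33 to 0.11. Among the transcripts that act on H3K4 methylation, KDM1A fell and KDM5A rose, while KMT2A, KMT2B, KMT2E, SETD1A, SETD1B, KDM5B and KDM5C were not called. The ratio of KDM1A to KDM5A per kilobase of exon was 6.97, 6.93 and 6.27 with DMSO and 2.15, 2.69 and 1.88 with WFA. This pair too was chosen after the values were seen. Its exact two-sided permutation p of 0.1 was fixed in advance, because each gene's groups were already separate and in opposite directions.

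SETD6 had the largest fall of all members. It is a SET domain enzyme known for methylating the NF-κB subunit RelA rather than for a histone mark. Its level was 12.3, 14.6 and 14.9 CPM with DMSO and 5.80, 7.25 and 6.14 CPM with WFA, so the highest WFA library was below the lowest DMSO library. The log2 fold change was -1.12 ± 0.16 (SE, adjusted p = 3.17e-05 by edgeR), a 2.17-fold fall. SETD6 (chr16:58515479-58521181, plus strand) shares 29.9% of its exon bases with CNOT1 on the opposite strand, and the TruSeq RNA v2 kit named in the labels does not mark strand. CNOT1 had up to 8056 counts per library and a log2 fold change of -0.29 (adjusted p = 0.014, edgeR), and its part in the SETD6 value was not tested.

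The 250 bases before the RefSeq start were searched in the 39 members with a promoter entry, which had 55 windows in all, for 4 motifs on both strands. These were CACGTG, the E-box bound by MYC and related factors, GAANNTTC, an inverted pair of heat shock repeat units, TGATGNAA, a C/EBP-ATF element, and TGACNNNGC, the antioxidant response element. CACGTG and GAANNTTC read the same on both strands, and copies of CACGTG and TGACNNNGC can share letters. The 2 windows below are shown because they hold CACGTG, in capitals, before the member with the largest fall and before the called member with 2 copies of it. They are RefSeq GRCh38.p14 sequence, 5′ to 3′ on the plus strand, at chr16:58515267-58515516 for SETD6 and chr9:6757723-6757972 for KDM4C.
SETD6: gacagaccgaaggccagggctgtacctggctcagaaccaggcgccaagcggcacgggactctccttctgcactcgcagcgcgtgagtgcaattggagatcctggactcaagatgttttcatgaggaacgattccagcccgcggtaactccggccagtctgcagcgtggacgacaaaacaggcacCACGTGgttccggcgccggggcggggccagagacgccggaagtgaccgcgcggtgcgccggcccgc
KDM4C: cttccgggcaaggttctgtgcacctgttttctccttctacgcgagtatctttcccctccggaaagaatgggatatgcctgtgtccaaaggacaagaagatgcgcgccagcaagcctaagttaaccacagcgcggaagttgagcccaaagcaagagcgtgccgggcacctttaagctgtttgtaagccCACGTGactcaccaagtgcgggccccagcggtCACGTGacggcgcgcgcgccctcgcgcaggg
The SETD6 copy begins 66 bases before the start, and the KDM4C copies begin 63 and 31 bases before it. CACGTG was in a window of 3 of 12 higher members (KDM4B, KDM4C and KMT2D), 1 of 10 lower members with an entry (SETD6) and 1 of 15 uncalled members with an entry (NSD1), against 6.34% of 35116 promoter windows. GAANNTTC was before KDM6B, SUV39H1 and SETD1A, against 5.78% of windows. TGACNNNGC was before KDM4C, KMT2D and SETD6, against 10.9% of windows, and TGATGNAA was in 0 tested members, against 3.14%. A member was counted if any of its windows held the motif, whereas the percentages are per window, so the units differ. Members that were not tested for a change were left out of these counts. A match describes the letters in a window and is not evidence of binding.

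Among the H3K4 methyltransferases, 2 of 8 were higher and 1 was lower. KMT2A (chr11:118436464-118526832, plus strand), whose 5′ portion is retained in the fusion of this line, had 99.7, 92.5 and 114 CPM with DMSO and 115, 93.2 and 116 CPM with WFA. The groups overlapped, and the log2 fold change of 0.08 had a 95% interval from -0.14 to 0.31, with an edgeR adjusted p of 0.545. Counts per gene do not separate the fused from the intact allele. KMT2A shares 22.0% of its exon bases with AP001267.5 on the same strand, which is not in the count table, and the part of this overlap was not tested. The paralogs KMT2C and KMT2D, which place monomethylation at enhancers, rose by 0.45 on the log2 scale (standard error 0.12, edgeR adjusted p = 0.00433) and by 0.34 (standard error 0.11, edgeR adjusted p = 0.0221). The KMT2D call was lost without DMSO replicate 1 (0.28), DMSO replicate 2 (0.30) or WFA replicate 3 (0.20), and when only total counts were used for scaling (0.25).

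SETD7, a monomethyltransferase of H3K4 and of many other proteins (chr4:139495941-139606699, minus strand), had 74.7, 80.3 and 92.9 CPM with DMSO and 57.3, 55.1 and 55.6 CPM with WFA. The WFA libraries lay close together below all DMSO libraries, at a log2 fold change of -0.56 ± 0.10 (SE, adjusted p = 0.000193 by edgeR). KMT2B, KMT2E, SETD1A and SETD1B, the other H3K4 members, did not pass the test and had log2 fold changes of 0.02, 0.11, -0.15 and 0.19. KMT2E is included by name, although its methyltransferase activity is in doubt.

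The H3K27 methyltransferases EZH1 and EZH2, alternative catalytic subunits of Polycomb repressive complex 2 (PRC2), had values of opposite sign. EZH1 (chr17:42700275-42745049, minus strand) had 16.0, 19.6 and 21.8 CPM with DMSO and 29.2, 29.5 and 35.6 CPM with WFA. All WFA libraries were higher, with a log2 fold change of 0.72 ± 0.13 (SE, adjusted p = 0.00041 by edgeR). EZH2 (chr7:148807383-148884321, minus strand) had 114, 108 and 118 CPM with DMSO and 109, 88.4 and 95.8 CPM with WFA. These groups overlapped through WFA replicate 1, and the log2 fold change was -0.21 with an edgeR adjusted p of 0.0685. The value passed the threshold without WFA replicate 1 (-0.30) and with the replicate number as a block (-0.22, edgeR adjusted p = 0.0184). EZH2 was the more abundant paralog per kilobase of exon in every library. The ratio of EZH2 to EZH1 was 10.8, 8.37 and 8.17 with DMSO and 5.66, 4.55 and 4.07 with WFA, which did not overlap (exact two-sided permutation p = 0.1), and this pair was chosen after the values were seen.

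The H3K9 methyltransferases included 2 lower members among the 3 that were tested. SUV39H1 (chrX:48695554-48709012, plus strand), which trimethylates H3K9 in heterochromatin, had 36.5, 32.7 and 31.8 CPM with DMSO and 23.8, 22.6 and 23.2 CPM with WFA. The groups were well apart, with a log2 fold change of -0.54 ± 0.11 (SE, adjusted p = 0.00066 by edgeR). SUV39H1 shares 21.5% of its exon bases with AC231533.1 on the opposite strand, which is not in the count table, and the part of this overlap was not tested. Its paralog SUV39H2 had -0.36 (standard error 0.12, edgeR adjusted p = 0.0237), a call that was lost without DMSO replicate 1 (-0.37), DMSO replicate 3 (-0.34) or WFA replicate 3 (-0.26). EHMT1, which with EHMT2 places dimethylation on H3K9 in euchromatin, had -0.09 with a 95% interval from -0.28 to 0.11.

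EHMT2 was listed at 0 counts in all 6 libraries. A count of 0 allows up to 3 counts, or 0.216 to 0.273 CPM across these libraries. EHMT2 lies at chr6:31879759-31897687 in the major histocompatibility complex, and of the 66 coding genes within 500 kb, 46 were at 0 in every library (69.7%) and 56 had no more than 3 counts in any (84.8%). Over all 19045 coding genes that could be matched, 20.2% were at 0 and 30.2% had no more than 3 counts. The 3 coding neighbours of KDM6A within 500 kb (chrX:44873177-45112602) also had no more than 3 counts, whereas 7 of the 9 neighbours of KDM4E had over 100. The zeros of EHMT2 and the single count of KDM6A stood among low neighbours, of which KDM6A had only 3. The cause was not tested.

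DOT1L, the H3K79 methyltransferase (chr19:2164149-2232578, plus strand), had 79.9, 71.3 and 84.3 CPM with DMSO and 58.5, 64.1 and 74.0 CPM with WFA. The groups overlapped between 71.3 and 74.0 CPM, and the log2 fold change was -0.26 (standard error 0.10), just past the threshold at an edgeR adjusted p of 0.045. The call was lost without DMSO replicate 1 (-0.25), DMSO replicate 3 (-0.21), WFA replicate 1 (-0.19) or WFA replicate 2 (-0.25). DOT1L shares 7.11% of its exon bases with PLEKHJ1 on the opposite strand, which had a log2 fold change of -0.06.

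Of the 4 H3K36 methyltransferases, WHSC1 was lower and SETD2, NSD1 and WHSC1L1 did not pass the test, with log2 fold changes of -0.08, 0.03 and -0.04. WHSC1 (NSD2; chr4:1871424-1982207, plus strand), which dimethylates H3K36, had 264, 235 and 276 CPM with DMSO and 216, 204 and 238 CPM with WFA. The groups overlapped at DMSO replicate 2, and the log2 fold change was -0.24 ± 0.09 (SE, adjusted p = 0.0469 by edgeR). Its call was lost without DMSO replicate 1 (-0.22), DMSO replicate 3 (-0.19), WFA replicate 1 (-0.22) or WFA replicate 2 (-0.19).

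SETD8 (KMT5A; chr12:123383773-123409358, plus strand), the enzyme that monomethylates H4K20 during the cell cycle, had 50.9, 51.6 and 48.9 CPM with DMSO and 40.3, 39.6 and 43.9 CPM with WFA. The groups were separate, at a log2 fold change of -0.29 ± 0.09 (SE, adjusted p = 0.0166 by edgeR), and the call was lost without DMSO replicate 1 (-0.29), DMSO replicate 2 (-0.29) or WFA replicate 2 (-0.26). Among the other SETD proteins, SETD3, an actin histidine methyltransferase, fell by 0.34 on the log2 scale (standard error 0.09, edgeR adjusted p = 0.00429). SETD5, a SET domain protein of chromatin complexes, rose by 0.43 on the same scale (standard error 0.09, edgeR adjusted p = 0.00133). SETD4 and SETD9 did not pass the test, with -0.29 (edgeR adjusted p = 0.0662) and -0.09. With the replicate block SETD4 was called lower (-0.29, edgeR adjusted p = 0.035).

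The levels of the members differed widely on the scale of CPM per kilobase of exon (GENCODE 29). With DMSO the highest were KDM4A at 101, KDM1A at 41.9, EZH2 at 37.0, SETD3 at 26.9 and KDM3B at 25.8. KDM4A shares 46.4% of its exon bases with AL451062.3, and the part of this overlap in its level was not tested. The lowest were KDM6B at 1.21, KDM7A at 0.687 and KDM4D at 0.353. With WFA the lowest were KDM4D at 0.773, KDM7A at 1.68 and SETD6 at 1.76, and KDM6B stood at 2.45.

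**Figure D3:**
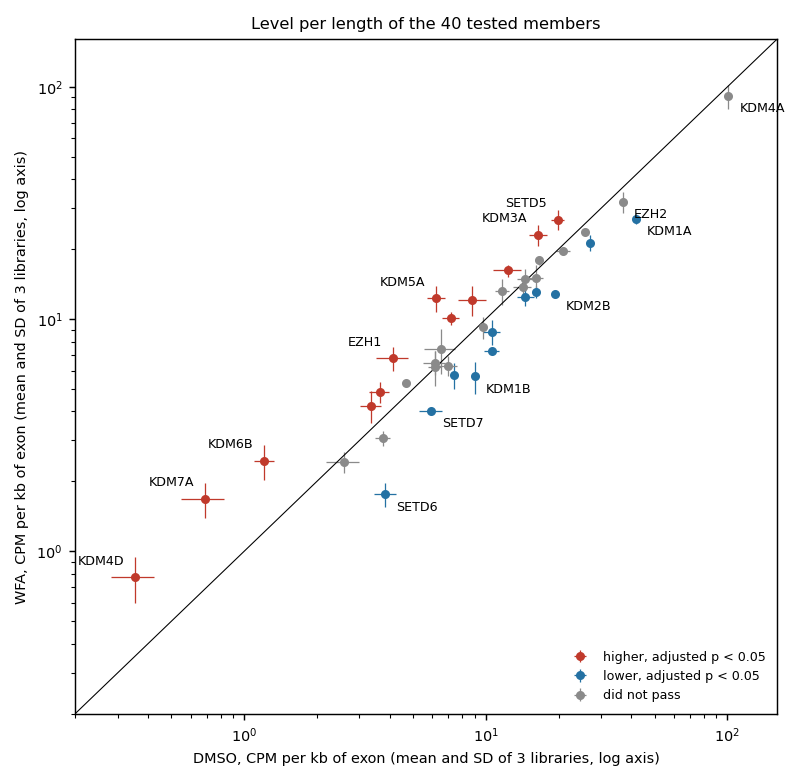
Mean level of the 40 tested members in CPM per kilobase of exon with DMSO (horizontal axis) and WFA (vertical axis), both on log axes, with SD over 3 libraries as bars and equality as the line. KDM7A, KDM6B and KDM4D lie above the line at the lowest levels, SETD6 lies below it at 3.84 with DMSO and 1.76 with WFA, and KDM4A lies highest.

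Genes around these enzymes were read from 8 lists of partner subunits, related enzymes and methyl-donor metabolism. The counts of these lists stand beside 25.8% of all tested genes higher and 24.7% lower. Of the 9 noncatalytic PRC2 subunits and accessory factors, 1 was higher and 5 were lower, and the median log2 fold change was -0.27. PHF1, an accessory factor that recognises H3K36 trimethylation, had 1.61 (edgeR adjusted p = 0.00092), while JARID2 and PHF19 had -0.70 and -0.64. The core subunits EED and SUZ12 did not pass the test, with -0.13 and -0.15. PHF1 had few counts and gave no value under the stricter filter.

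Of the 11 tested COMPASS partners, which assemble with the KMT2 and SETD1 enzymes, 0 were higher and 5 were lower in edgeR's test, with a median of -0.24. At an unadjusted p-value under 0.05 the number higher was also 0, as it was in DESeq2's test, but it was 1 without WFA replicate 2. WDR5 and ASH2L, both in the core shared by these complexes, had -0.80 (edgeR adjusted p = 3.26e-06) and -0.56 (edgeR adjusted p = 3.99e-05). MEN1, the subunit through which KMT2A fusions bind chromatin, had -0.21 and did not pass the test.

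The partners of DOT1L and AF9 (MLLT3) were divided, with 3 of 9 higher, 3 lower and a median of 0.02. AFF4 and AFF1, scaffolds of the super elongation complex, had 0.57 and 0.47, and MLLT1 and CDK9, its reader and kinase, had -0.47 and -0.40. MLLT3, the fusion partner in this line, had 0.19 and did not pass the test. Among 10 tested partners of LSD1, 3 were higher and 4 lower, with a median of -0.20. GFI1, the repressor that recruits LSD1 to DNA, had -2.68, and GSE1 had -0.59, whereas PHF21A had 0.57. RCOR1 and HDAC2 of the same corepressor were lower as well, at -0.48 and -0.50.

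Of 11 other lysine methyltransferases, 1 was higher (SUV420H2, 0.90) and 5 were lower, led by SETMAR at -1.10 and SMYD5 at -0.98. Of 11 other JmjC proteins, 5 were higher and 4 lower, with a median of 0.18. PHF8, a demethylase related to KDM7A, had 0.99 (edgeR adjusted p = 2.77e-07), and JMJD6 had 0.97, while MINA and C14orf169, which are ribosomal oxygenases, had -0.77 and -0.66. The 8 tested arginine methyltransferases had 3 higher, with PRMT3 at 0.69 and PRMT2 at 0.43, and 4 lower, with PRMT6 at -0.68 and PRMT5 at -0.59.

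The S-adenosylmethionine cycle, which supplies the methyl groups, had 2 higher and 3 lower genes among 8 tested. AHCYL2, a relative of the hydrolase that clears the product of methyl transfer, had 1.48 (edgeR adjusted p = 2.8e-07). MTR, the methionine synthase, and its reactivating partner MTRR had -0.94 (edgeR adjusted p = 1.53e-06) and -0.62. MAT2A, which makes S-adenosylmethionine in most cells, had -0.67 (edgeR adjusted p = 0.000473).

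**Figure D4:**
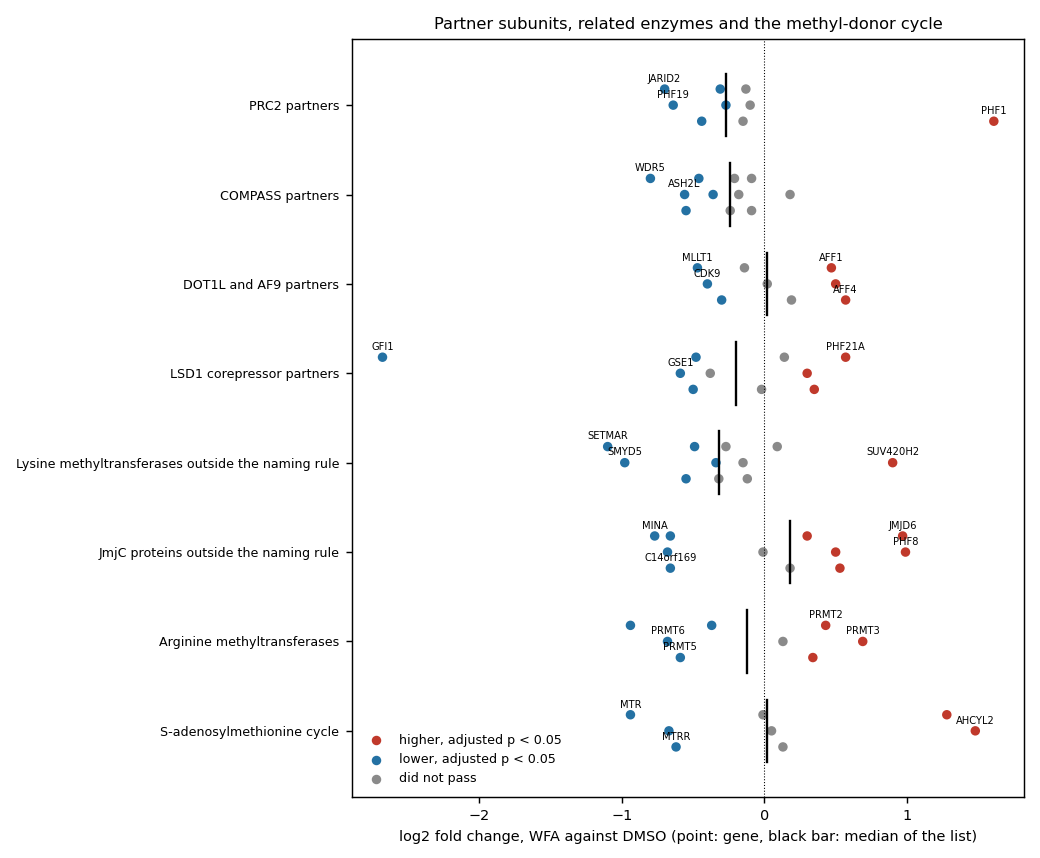
Log2 fold change with WFA against DMSO (horizontal axis) for the tested genes of the 8 lists of partners, related enzymes and the methyl-donor cycle. Points are genes, colored by the edgeR call, black bars are list medians, and labels mark genes whose values are given in the text. The PRC2 and COMPASS lists have medians of -0.27 and -0.24, and PHF1 stands apart at 1.61.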

How the data were processed

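RNA-seq counts from 6 THP1 libraries were used. The authors deposited unnormalized read counts for each gene symbol, which were used. Beside these they deposited a rounded score per library (the count divided by a size factor), means and their own comparison (fold changes and p-values), which were not used. Submitters' processing notes name hg38, bcl2fastq 2.19, Trimmomatic, Bowtie2, Picard, featureCounts and DESeq2. Annotation and the strand and multi-mapping settings of the counting are not given in the sources used here, so paralogs could share reads. Counts were compared with edgeR 4.0.16 in R 4.3.3 (TMM, filterByExpr with a minimum count of 10, quasi-likelihood test, Benjamini-Hochberg threshold 0.05), after testing on simulated data. Exon lengths and positions came from GENCODE 29 on GRCh38.

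Alternatives were the replicate block, RLE, total-count and upper-quartile scaling, DESeq2 1.42.0, limma-voom 3.58.1, no filter, a filter of 50 counts in 3 libraries, a robust fit and leaving out each library. Replicate numbers and shared codes in the labels tie the groups. Same-numbered libraries deviated together (correlations 0.22, 0.33 and 0.25, others -0.26 to 0), so the numbers pair the samples. The main fit did not use this pairing, and the replicate block did. Members and lists were chosen with earlier results of these data known. Values in every library are given for called members with a log2 fold change of at least 0.58 in size, the member with the smallest p-value in each role group, and KMT2A, EZH2, DOT1L and KDM1A. From each partner list, the called genes with the 2 smallest p-values in each direction are named, and some genes that these rules select are not reported here. Other genes named from these lists (EED, SUZ12, MEN1, MLLT3, RCOR1, HDAC2 and MAT2A) were chosen after their values were seen. Exact permutation of 3 against 3 ignored the pairing and cannot go below p = 0.1. Limits from counts cover counting error only.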

Additional observations from a re-analysis of the deposited data

How the results depend on the processing

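Under 15 other settings, 18 of the 23 called members kept their call, none of the 23 changed sign, and DOT1L, KMT2D, SETD8, SUV39H2 and WHSC1 lost theirs in at least 1 setting. The number of lower members ranged from 7 (without DMSO replicate 1) to 11 when single libraries were left out. DOT1L and WHSC1 also lost their calls with upper-quartile factors and with the stricter filter. Of the 17 uncalled members, EZH2, SETD4, KDM3B and KDM4A gained a call somewhere. With the replicate block 12 members were higher and 13 lower, beside 30.2% and 28.8% of all genes in that fit, the additions being EZH2 (-0.22) and SETD4 (-0.29), and no other member's call changed. The block left 2 residual degrees of freedom in place of 4. Its prior degrees of freedom, which set how far variation is pooled across genes, were infinite, beside a median of 10.8 in the main fit. P-values with the block therefore rest on pooled variation and not on each gene's own, and its added calls carry this limit. The median of the members was -0.15 with total counts and -0.10 to 0.00 with single libraries left out. Uncalled values near 0 changed sign. With total counts KMT2A was -0.01, KMT2B -0.07 and NSD1 -0.05. With single libraries left out KMT2B ranged from -0.10 to 0.15, NSD1 from -0.04 to 0.10 and WHSC1L1 from -0.10 to 0.03. KDM4D, with 10 to 36 counts, had no value under the stricter filter.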
